A study of Mus musculus with 6 samples.

Results

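Toll-like receptors are the sensors by which myeloid cells detect microbes, and the 10 genes described here are 7 of these receptors, *Tlr1*, *Tlr2*, *Tlr4*, *Tlr6*, *Tlr7*, *Tlr9* and *Tlr13*, with *Cd14*, *Ly96* and *Myd88*, which serve them as coreceptor, partner and adaptor. They were found by their symbols among the 41128 genes of the expression table, and 9 of the 10 were expressed highly enough to be tested. The genes were chosen with earlier results of these data known. Their transcripts were measured by RNA sequencing of flow-sorted KIT+Gr1+ acute myeloid leukemia (AML) cells from the bone marrow (BM) of 6 sick C57BL/6 mice, with 1 library for each mouse.

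All leukemias carried retroviral *Hoxa9*. KIT+ BM cells of CD45.1+ female donors were infected with the *Hoxa9* vector together with either the empty control vector MTV (*Hoxa9*/MTV, mice 1.1, 1.2 and 1.4) or a vector for human *IRX3* (*Hoxa9*/*IRX3*, mice 3.2, 3.3 and 3.5), selected with drugs and transplanted into irradiated CD45.2+ recipients. Flow sorting from frozen BM collected live cells with KIT, Gr1 and the donor antigen CD45.1 on their surface. The *Hoxa9*/MTV mice served as the control group, so every comparison below is between leukemias that share *Hoxa9* and differ in the *IRX3* vector. *IRX3* encodes a homeodomain protein that is normally absent from blood cells. The vector was not the only difference between the cohorts. The paper reports a later onset of leukemia in *Hoxa9*/*IRX3* recipients, and a larger share of immature blast cells in their blood and BM. Age and time since transplantation may therefore differ between the groups along with *IRX3*. The part of these differences in the results below was not tested. The retroviral vectors integrate at sites that the labels do not give.

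Receptors on the cell surface detect components of microbial envelopes: TLR4 with MD-2 (the product of *Ly96*) and CD14 binds lipopolysaccharide, and TLR2 pairs with TLR1 or TLR6 to bind lipopeptides. Receptors in endosomes detect nucleic acids: TLR7 binds single-stranded RNA, TLR9 binds DNA with unmethylated CpG, and TLR13, which mice have and humans lack, binds a stretch of bacterial ribosomal RNA. All 7 receptors signal through the adaptor MYD88, which recruits IRAK kinases and TRAF6 and so activates NF-kappaB and IRF factors. In the marrow many of these receptors are found in monocytes, macrophages and neutrophils, among other cells.

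Levels are given as the deposited RPKM (read density along a gene, relative to the size of its library), where the length is that of the whole gene span, introns included. Each library held between 7979246 and 9803621 reads, as recovered from the values. Endogenous *Irx3*, to which reads of the human cDNA align only where the species are alike, had 0 reads in the controls, against 15.1 RPKM in mouse 3.2, 0.421 RPKM in mouse 3.3 and 0.148 RPKM in mouse 3.5. *Hoxa9* lay between 154 and 363 RPKM and *Kit* between 1.63 and 3.12 RPKM in all mice. Gr1 antibody binds the products of *Ly6g* and *Ly6c* genes, and *Ly6c2* was between 413 and 844 RPKM while *Ly6g* stayed at or below 1.42 RPKM. Mouse 3.3 stood apart from the other *Hoxa9*/*IRX3* mice in the monocyte factor *Irf8* (63.1 RPKM, against 2.61 and 2.98) and in the integrin gene *Itgam* (0.690 RPKM, against 2.90 and 5.34). In sorted bulk RNA, fewer cells of a kind and less RNA per cell cannot be told apart.

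Expression of 3 of the 9 tested genes fell in *Hoxa9*/*IRX3* leukemias: *Tlr9*, *Tlr13* and *Tlr2*. No member rose. A gene was called if its adjusted p was under 0.05 and it differed 2-fold or more in limma's fit of log2(RPKM + 0.5) to all 9522 protein-coding genes with over 0.5 RPKM in at least 1 mouse, and by this rule 2.03% of all tested genes were lower and 1.10% were higher. The members were chosen with earlier results of these data known, and *Tlr13* passed the expression filter only through the *Hoxa9*/MTV mice. The 3 calls are 33.3% of the tested members, a share that, given these limits, shows no excess by itself. With mouse 1.1 or mouse 1.4 left out only 1 of them was called (*Tlr9* and *Tlr13*, respectively), without mouse 1.2 or 3.5 both of these were, whereas without mouse 3.2 the count was 3, and without mouse 3.3 it was also 3 but with *Tlr6* in place of *Tlr2*. For 4 members (*Tlr2*, *Tlr6*, *Tlr9* and *Tlr13*) all *Hoxa9*/*IRX3* mice lay below all *Hoxa9*/MTV mice, which held for 21.6% of all tested genes. For 1 member, *Tlr4*, they all lay above, which held for 12.2%. The groups overlapped for the other 4. By limma 5 members had an unadjusted p under 0.05, 4 on the lower side and *Tlr4* on the higher side, and limma voom on recovered reads also called 0 members higher. The share of all tested genes with such a p is not given here, so this count by itself shows no excess. By the criterion applied in the study, which asks for means over 2-fold apart and p under 0.05 without adjustment, 4 members were lower and 0 higher, against 4.72% and 2.26% of all tested genes. The median log2 fold change was -0.25 over the members and -0.06 over all tested genes.

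**Figure D1:**
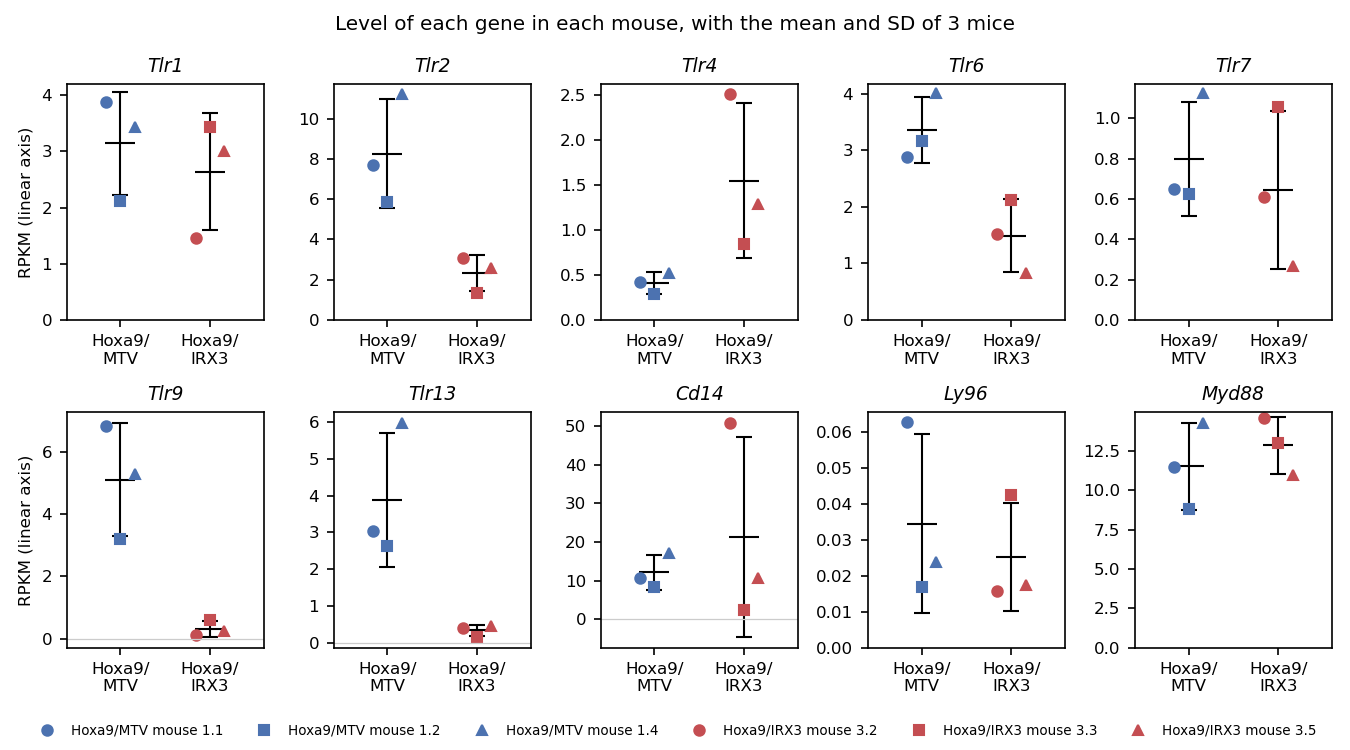
RPKM on a linear axis of the 10 genes, 1 panel a gene, for 3 *Hoxa9*/MTV mice (blue) and 3 *Hoxa9*/*IRX3* mice (red); each point is 1 mouse and the bars are the mean and SD of 3 mice. *Tlr9* was between 3.20 and 6.83 RPKM in blue points and at most 0.595 RPKM in red ones, while the *Cd14* points of mice 3.2 and 3.3, at 50.8 and 2.45 RPKM, enclose all blue points.

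Of the receptors for nucleic acids, *Tlr9* and *Tlr13* fell and *Tlr7* did not pass the test. *Tlr9* (GRCm38, chromosome 9, 106222598 to 106226883, plus strand) was at 6.83, 3.20 and 5.28 RPKM in *Hoxa9*/MTV mice 1.1, 1.2 and 1.4, against 0.105, 0.595 and 0.234 RPKM in *Hoxa9*/*IRX3* mice 3.2, 3.3 and 3.5. These values rest on 259, 114 and 219 reads in the former and on 4, 25 and 8 reads in the latter. Every *Hoxa9*/MTV mouse was several times above every *Hoxa9*/*IRX3* mouse, and mouse 3.3 had the most *Tlr9* of its group. Mean *Tlr9* was 5.11 ± 1.82 RPKM (SD, n = 3) against 0.311 ± 0.254 RPKM (n = 3), a ratio of 16.4, or 30.1 without mouse 3.3. On the log2 scale the change was -2.78 (SE 0.31, 95% interval -3.52 to -2.03, adjusted p = 0.00854 by limma). It was called in 5 of 6 fits that left out 1 mouse, and without mouse 1.4 the adjusted p was 0.0616.

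*Tlr13* (GRCm38, chromosome X, 106143204 to 106160493, plus strand) was at 3.04, 2.64 and 5.97 RPKM in the *Hoxa9*/MTV mice, against 0.405, 0.165 and 0.457 RPKM in the *Hoxa9*/*IRX3* mice, from 465, 379 and 999 reads and from 62, 28 and 63 reads. The groups were far apart, and here mouse 3.3 was the lowest of its group, unlike for *Tlr9*. Mean *Tlr13* was 3.89 ± 1.82 RPKM (SD, n = 3) against 0.342 ± 0.156 RPKM (n = 3), with a log2 fold change of -2.32 (SE 0.30, 95% interval -3.03 to -1.61, limma adjusted p = 0.0124). This call was lost without mouse 1.1, with an adjusted p of 0.0541. *Tlr13* passed the expression filter only through the *Hoxa9*/MTV mice.

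*Tlr7*, whose gene is on the X chromosome like that of *Tlr13*, was at 0.649, 0.625 and 1.13 RPKM in the *Hoxa9*/MTV mice, against 0.612, 1.05 and 0.269 RPKM in the *Hoxa9*/*IRX3* mice. The groups overlapped, with mouse 3.3 close to the highest control and mouse 3.5 below them all. The log2 fold change was -0.22 (95% interval -0.90 to 0.46, adjusted p = 0.666), and without mouse 3.5 it was 0.04.

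The sequences just before the *Tlr9*, *Tlr13* and *Tlr2* genes are shown because these are the 3 genes that were called lower. They are from the RefSeq promoter windows of GRCm38.p6, each of 300 bases from 250 before to 50 after a transcription start, restricted here to the bases upstream of any annotated exon. Windows were at hand for 6 members (8 windows). They were searched on both strands for GAGGAA (bound by ETS factors such as PU.1), TTGCNNAA (C/EBP factors), TGATTTAT (HOXA9 with PBX or MEIS), ACATGT (Iroquois factors) and GAAANNGAA (IRF factors). Capitals mark a match, written 5′ to 3′ on the strand of the gene: *Tlr9* at chr9:106222348-106222597 (plus strand), *Tlr13* at chrX:106143025-106143203 (plus strand) and *Tlr2* at chr3:83841768-83841858 (minus strand).
Tlr9: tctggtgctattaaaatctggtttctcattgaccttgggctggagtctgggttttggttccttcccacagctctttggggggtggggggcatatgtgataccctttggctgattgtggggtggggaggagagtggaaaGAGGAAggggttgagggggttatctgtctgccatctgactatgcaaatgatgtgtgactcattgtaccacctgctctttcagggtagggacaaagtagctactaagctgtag
Tlr13: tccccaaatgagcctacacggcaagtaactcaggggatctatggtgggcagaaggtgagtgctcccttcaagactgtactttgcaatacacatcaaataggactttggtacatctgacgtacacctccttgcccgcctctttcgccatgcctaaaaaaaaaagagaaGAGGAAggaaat
Tlr2: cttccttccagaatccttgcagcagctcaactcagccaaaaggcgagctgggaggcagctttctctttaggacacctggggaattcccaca
GAGGAA began 112 bases before the start of *Tlr9* and 83 bases before that of *Tlr13*, and 28.3% of all 32851 promoter windows held it on either strand. The *Tlr9* window had another match on the opposite strand 12 bases after the start, and the *Tlr13* window had TTGCNNAA on the opposite strand at the start itself, a motif in 10.8% of windows; both lie outside the printed stretch. Neither the HOXA9 motif nor the Iroquois motif was in any of the 8 windows, and they were in 0.977% and 5.28% of all windows. No searched motif was in the *Tlr2* window. Of the windows of genes that were not called, that of *Myd88* held GAAANNGAA (8.56% of all windows) 40 bases before the start and 1 of the *Tlr1* windows held GAGGAA 23 bases before it. In 1 of the *Tlr6* windows TTGCNNAA began 89 bases before the start, and GAAANNGAA began 115 and 109 bases before it, both on the opposite strand and overlapping. A match describes letters and was not tested for binding.

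Among the lipopeptide receptors, the shared subunit *Tlr2* fell while its partners *Tlr1* and *Tlr6* did not pass the test. *Tlr2* (GRCm38, chromosome 3, 83836272 to 83841767, minus strand) was at 7.72, 5.87 and 11.2 RPKM in the *Hoxa9*/MTV mice, against 3.08, 1.36 and 2.58 RPKM in the *Hoxa9*/*IRX3* mice, from 375, 268 and 596 reads and from 150, 73 and 113 reads. All *Hoxa9*/*IRX3* mice were below all *Hoxa9*/MTV mice, with mouse 3.3 the lowest. Mean *Tlr2* was 8.27 ± 2.71 RPKM (SD, n = 3) against 2.34 ± 0.887 RPKM (n = 3), a ratio of 3.54. Its log2 fold change was -1.64 (SE 0.31, 95% interval -2.39 to -0.88, limma adjusted p = 0.0376). The call sat near its limit: of the 6 fits that left out 1 mouse it held in 1, that without mouse 3.2, and the adjusted p rose to 0.142 without mouse 1.4.

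*Tlr6* (GRCm38, chromosome 5, 64952031 to 64960097, minus strand) was at 2.88, 3.17 and 4.01 RPKM in the *Hoxa9*/MTV mice, against 1.51, 2.12 and 0.830 RPKM in the *Hoxa9*/*IRX3* mice. The groups did not overlap, and mouse 3.3 was the nearest to the controls. The mean was 3.35 ± 0.583 RPKM (SD, n = 3) against 1.49 ± 0.643 RPKM (n = 3). The log2 fold change was -1.0 (SE 0.26, 95% interval -1.62 to -0.38), and its limma adjusted p of 0.0759 missed the threshold. Without mouse 3.3 it passed, at a log2 fold change of -1.23 with an adjusted p of 0.0421.

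*Tlr1*, the neighbor of *Tlr6* on chromosome 5 (GRCm38, 64924679 to 64933563, minus strand), was at 3.88, 2.12 and 3.43 RPKM in the *Hoxa9*/MTV mice, against 1.46, 3.44 and 3.01 RPKM in the *Hoxa9*/*IRX3* mice. The groups overlapped, and only mouse 3.2 was below all controls. The log2 fold change was -0.25 (95% interval -1.0 to 0.51, adjusted p = 0.663), and it was 0.06 without mouse 3.2. The transcripts of *Tlr1* and *Tlr6* are alike in part: of their stretches of 75 bases, the length of a read, 10.6% in *Tlr1* also occurred in another gene, nearly always *Tlr6*, and 9.25% in *Tlr6* also occurred in *Tlr1*, so some reads of either gene could be assigned to the other or discarded.

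The genes of the lipopolysaccharide receptor differed from each other in pattern. *Tlr4* (GRCm38, chromosome 4, 66827584 to 66930284, plus strand) was at 0.415, 0.284 and 0.521 RPKM in the *Hoxa9*/MTV mice, against 2.50, 0.839 and 1.29 RPKM in the *Hoxa9*/*IRX3* mice, from 377, 242 and 518 reads and from 2276, 845 and 1055 reads. All *Hoxa9*/*IRX3* mice were above all *Hoxa9*/MTV mice, with mouse 3.2 the highest and mouse 3.3 the lowest of its group. The mean was 0.407 ± 0.119 RPKM (SD, n = 3) against 1.54 ± 0.860 RPKM (n = 3), a ratio of 3.79, or 2.61 without mouse 3.2. On the log2 scale the change was 1.10 (SE 0.30, 95% interval 0.39 to 1.81), and its limma adjusted p of 0.0832 missed the threshold. It passed without mouse 3.3 (1.36, adjusted p = 0.0433), and with all mice included the other settings gave adjusted p-values from 0.0557 to 0.141. The estimate depended on the setting: 1.6 with a pseudocount of 0.1, 0.8 with a pseudocount of 1, 1.75 per exon length and 1.8 with limma voom.

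*Cd14*, the coreceptor that hands lipopolysaccharide to TLR4, was at 10.7, 8.47 and 17.2 RPKM in the *Hoxa9*/MTV mice, against 50.8, 2.45 and 10.7 RPKM in the *Hoxa9*/*IRX3* mice. The controls were alike, whereas mouse 3.2 was above all of them and mouse 3.3 below all of them. The mean was 12.1 ± 4.51 RPKM (SD, n = 3) against 21.3 ± 25.9 RPKM (n = 3). The log2 fold change was -0.02 with a 95% interval from -2.32 to 2.27 (limma adjusted p = 0.991), so that a rise or a fall of severalfold was within the spread of these mice. It was -1.08 without mouse 3.2 and 0.98 without mouse 3.3.

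*Ly96*, which encodes the lipopolysaccharide-binding partner of TLR4, had 12, 3 and 5 reads in the *Hoxa9*/MTV mice and 3, 9 and 3 reads in the *Hoxa9*/*IRX3* mice, that is at most 0.0629 RPKM. The groups overlapped. The expression filter left it out of the fit, and in the fit without that filter its log2 fold change was -0.02 (limma adjusted p = 0.753).

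*Myd88* (GRCm38, chromosome 9, 119335934 to 119341411, minus strand), on which all of these receptors converge, was at 11.5, 8.79 and 14.3 RPKM in the *Hoxa9*/MTV mice, against 14.6, 13.0 and 11 RPKM in the *Hoxa9*/*IRX3* mice. The groups overlapped, and the highest mouse was less than 2-fold above the lowest. The mean was 11.5 ± 2.77 RPKM (SD, n = 3) against 12.9 ± 1.82 RPKM (n = 3), with a log2 fold change of 0.17 (95% interval -0.33 to 0.67, limma adjusted p = 0.653), which was -0.01 without mouse 1.2. The interval lies within 2-fold in either direction. Of its exon bases 11.3% overlap *Acaa1a* on the opposite strand, and the whole gene lies in the span of *Slc22a14*; the libraries kept the strand, but whether reads were assigned to genes by strand is not given in the sources used here.

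**Figure D2:**
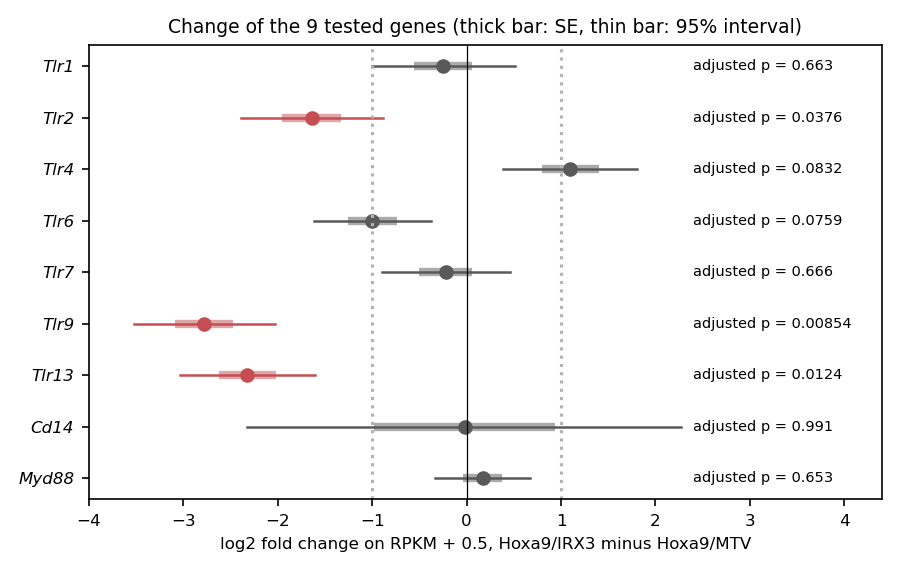
Log2 fold change of RPKM + 0.5 (*Hoxa9*/*IRX3* minus *Hoxa9*/MTV, 3 mice each) of the 9 tested genes, with the SE as a thick bar, the 95% interval as a thin bar and limma's adjusted p at the right; dotted lines mark a 2-fold change and red marks genes past both limits. *Tlr9*, *Tlr13* and *Tlr2* are red on the lower side at -2.78, -2.32 and -1.64, and the interval of *Cd14* runs from -2.32 to 2.27.

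The other 5 Toll-like receptor genes were lowly expressed, except *Tlr12* in the *Hoxa9*/MTV mice. *Tlr12*, a receptor for a protozoan protein, was the only one tested and fell, at 3.53, 1.48 and 4.20 RPKM in the *Hoxa9*/MTV mice and 0.0356, 0.0321 and 0.750 RPKM in the *Hoxa9*/*IRX3* mice (99, 39 and 129 reads against 1, 1 and 19). The groups did not overlap, and mouse 3.5 held most of the reads of its group. The log2 fold change was -2.24 (SE 0.45, limma adjusted p = 0.0407), and of the 6 fits without 1 mouse only that without mouse 3.5 kept the call. With all mice the call was also lost with a pseudocount of 0.1 (adjusted p = 0.0557), without a filter (0.087), with limma voom (0.0832) and per exon length (0.0513), and the estimate ran from -1.65 to -4.60. *Tlr8*, which senses RNA, had 46, 14 and 77 reads against 2, 0 and 7, again without overlap. It was under the threshold, and without the filter its log2 fold change was -0.48 (limma adjusted p = 0.165). *Tlr3*, for double-stranded RNA, was listed at 0 in every control and in mouse 3.3, at 0.430 RPKM in mouse 3.2 and at 0.0335 RPKM in mouse 3.5. *Tlr5*, for flagellin, had 11 reads or fewer and *Tlr11* had 1 read or none in every mouse.

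Between genes, levels were compared as RPKM per exon length, since the span of *Tlr4* (102701 bases) is far longer than its exons (5556 bases). This scale divides all reads of a gene by its exon length, as if none lay in introns. The number of intron reads is not known here, and any would raise *Tlr4* the most on this scale. The ranks and shares below rest on this assumption. On this scale the order in *Hoxa9*/MTV mice was *Myd88* (24.5 ± 5.88, SD, n = 3), *Tlr13* (15.6 ± 7.31), *Tlr2* (15.1 ± 4.95), *Cd14* (12.1 ± 4.51), *Tlr1* (8.35 ± 2.43), *Tlr4* (7.52 ± 2.2), *Tlr6* (7.26 ± 1.26), *Tlr9* (6.29 ± 2.25), *Tlr7* (5.02 ± 1.77) and *Ly96* (0.730 ± 0.525). Neighbors in this order had overlapping ranges over mice, except that the range of *Ly96* lay below that of *Tlr7*. In *Hoxa9*/*IRX3* mice the order was *Tlr4* (28.5 ± 15.9), *Myd88* (27.4 ± 3.87), *Cd14* (21.3 ± 25.9), *Tlr1* (7.0 ± 2.76), *Tlr2* (4.26 ± 1.62), *Tlr7* (4.05 ± 2.47), *Tlr6* (3.22 ± 1.39), *Tlr13* (1.38 ± 0.625), *Ly96* (0.533 ± 0.318) and *Tlr9* (0.384 ± 0.313), and all neighbors overlapped. *Tlr4* thus stood at rank 6 in the controls and at rank 1 in the *Hoxa9*/*IRX3* mice, and *Tlr13* at rank 2 and rank 8. Per gene span *Tlr4* ranked only at 9 and 5.

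The make-up of Toll-like receptor transcripts separated the groups. Of the summed RPKM per exon length of all 12 Toll-like receptor genes, *Tlr4* held 11.2%, 10.7% and 10.5% in mice 1.1, 1.2 and 1.4 and 70.0%, 38.9% and 55.0% in mice 3.2, 3.3 and 3.5. The receptors for nucleic acids (*Tlr3*, *Tlr7*, *Tlr8*, *Tlr9* and *Tlr13*) together held 38.3%, 38.7% and 43.2% in the former and 10.5%, 20.1% and 9.60% in the latter. Both shares were uniform among the controls and separated the groups without overlap. The mean share of *Tlr4* was 10.8% ± 0.397 (SD, n = 3) against 54.6% ± 15.6 (n = 3), and that of the nucleic acid receptors was 40.1% ± 2.73 against 13.4% ± 5.82; for each, the exact two-sided permutation test over mice gave p = 0.1, the smallest that 3 mice against 3 allow. These shares were chosen for comparison after their values were seen, and they are shares of a sum, so that a fall of *Tlr9*, *Tlr13* and *Tlr2* raises the share of *Tlr4* by itself. The sum was 68.2, 49.0 and 92.1 RPKM per exon length in the *Hoxa9*/MTV mice and 66.0, 39.9 and 43.3 in the *Hoxa9*/*IRX3* mice, with overlap. Per gene span the difference in the *Tlr4* share was 14.2 percentage points, against 43.8 points per exon length.

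**Figure D3:**
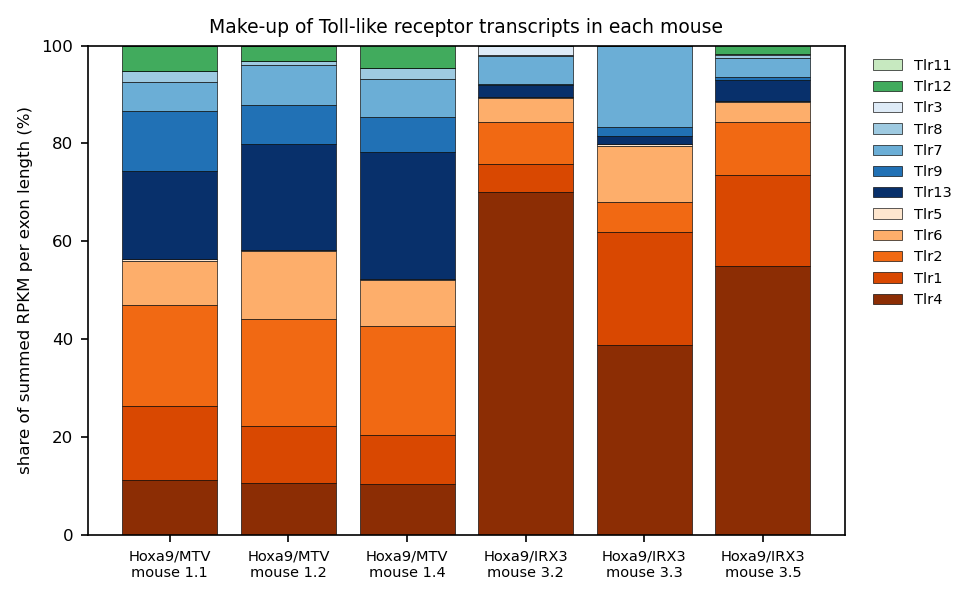
Share in % of the summed RPKM per exon length of 12 Toll-like receptor genes held by each gene, 1 bar a mouse, with receptors of the cell surface in brown and orange, those for nucleic acids in blue, and *Tlr11* and *Tlr12* in green. The *Tlr4* segment covers 10.5% to 11.2% of the 3 *Hoxa9*/MTV bars and 38.9% to 70.0% of the 3 *Hoxa9*/*IRX3* bars.

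Receptor genes were then compared within each mouse, as the log2 ratio of RPKM + 0.5, in 5 pairs tested with the exact two-sided permutation test over mice: 4 pairs whose products work together, and *Tlr4* with *Tlr2*, the ligand-binding chains of separate receptors. *Tlr4* relative to *Tlr2* was at -3.17, -3.02 and -3.52 in the *Hoxa9*/MTV mice, against -0.25, -0.47 and -0.78 in the *Hoxa9*/*IRX3* mice. This ratio varied little within either group and the groups were far apart, with means of -3.24 ± 0.26 (SD, n = 3) and -0.50 ± 0.27 (n = 3). The difference was 2.73 (exact permutation p = 0.1, 0.167 when adjusted over the 5 pairs), and no pair can go lower than 0.1. *Tlr1* relative to *Tlr2* was at -0.91, -1.28 and -1.57 against -0.87, 1.09 and 0.19, so that mouse 3.2 was barely above the highest control, and the means of -1.25 ± 0.33 and 0.14 ± 0.98 differed by 1.39 (exact p = 0.1, adjusted 0.167). *Tlr6* relative to *Tlr2* overlapped between the groups, with means of -1.15 ± 0.31 and -0.52 ± 0.90 (difference 0.64, exact p = 0.3, adjusted 0.3).

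For the lipopolysaccharide receptor, *Ly96* relative to *Tlr4* was lower in all *Hoxa9*/*IRX3* mice (means -0.75 ± 0.19 and -1.88 ± 0.62, difference -1.12, exact permutation p = 0.1, adjusted 0.167). Since *Ly96* was near 0 everywhere, this ratio follows *Tlr4* and the pseudocount. *Cd14* relative to *Tlr4* was at 3.62, 3.52 and 4.11 against 4.10, 1.14 and 2.65. Mouse 3.2 lay among the controls and the other *Hoxa9*/*IRX3* mice lay below them (difference -1.12, exact permutation p = 0.3, adjusted 0.3).

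**Figure D4:**
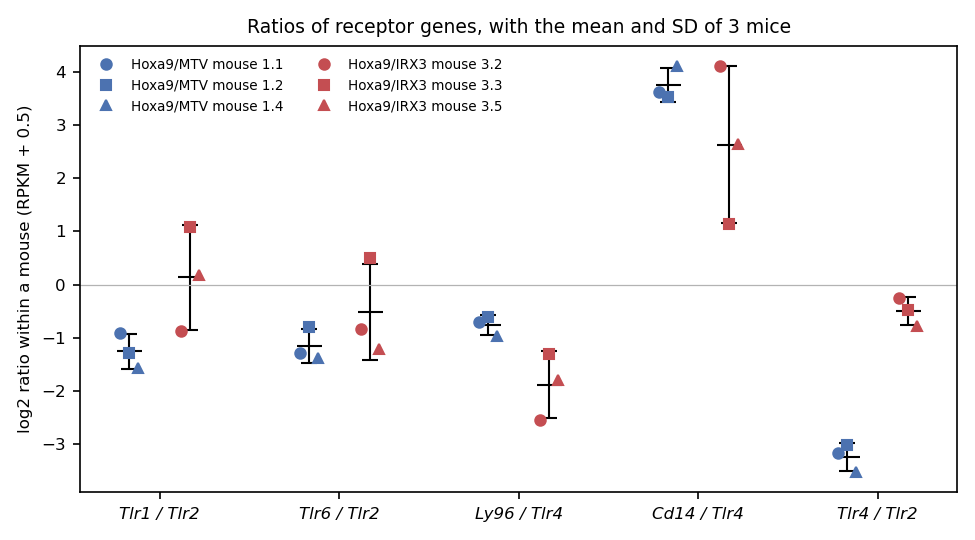
Log2 ratio within a mouse of RPKM + 0.5 for 5 pairs of receptor genes, with 1 point a mouse (blue, *Hoxa9*/MTV; red, *Hoxa9*/*IRX3*) and the mean and SD of 3 mice. For *Tlr4* over *Tlr2* the blue points lie between -3.52 and -3.02 and the red points between -0.78 and -0.25.

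The remainder of the pathway was described with 10 lists of genes ordered by role, which hold 106 genes, 80 of them tested. Of these 6 fell, namely *Tlr12*, *Unc93b1*, *Ctss*, *Sigirr*, *Irf5* and *Nlrp3*, and 0 were called higher, against 2.03% and 1.10% of all tested genes. By limma 23 had an unadjusted p under 0.05 on the lower side and 5 on the higher side, and limma voom called 2 higher (*Il1rap* and *Ddx58*). The share of all tested genes with such an unadjusted p is not given, so neither these counts nor those of single lists below show an excess. The median log2 fold change of the 80 genes was -0.17. With mouse 1.1, 1.2 or 1.4 left out only 1 gene, *Irf5*, was called lower, whereas without mouse 3.2, 3.3 or 3.5 there were 5, 5 and 6 calls, of which 4, 3 and 4 were among the 6 genes above.

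Of 9 tested accessory and trafficking proteins 1 fell. *Unc93b1*, which carries the nucleic acid receptors to endosomes, was at 20.8, 22.3 and 20.5 RPKM in the *Hoxa9*/MTV mice, against 6.94, 7.75 and 4.63 RPKM in the *Hoxa9*/*IRX3* mice, far apart and with little spread. Its log2 fold change was -1.67 (SE 0.20, limma adjusted p = 0.00956), called in 3 of 6 fits without 1 mouse. Of 4 tested endosomal proteases, which cut the receptors for nucleic acids into their active form, *Ctss* (cathepsin S) fell from 1.25 ± 0.341 to 0.137 ± 0.110 RPKM (SD, n = 3 each; log2 fold change -1.45, SE 0.20, limma adjusted p = 0.0147). *Ctss* passed the expression filter only through the controls, being at most 0.263 RPKM in *Hoxa9*/*IRX3* mice. It was called in 3 of 6 fits without 1 mouse, and was not called with a pseudocount of 1. *Tlr9*, *Tlr13*, *Unc93b1* and *Ctss* were thus each lower in every *Hoxa9*/*IRX3* mouse than in any control, as were 21.6% of all tested genes.

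Downstream of the receptors, few genes passed. None of 5 adaptors was called by limma (1 had an unadjusted p under 0.05). The largest estimates were for *Ticam2*, the bridging adaptor of TLR4, at -1.10 (adjusted p = 0.0884) and for *Sarm1* at 0.89 (adjusted p = 0.329). None of 19 kinases and ubiquitin ligases was called either (6 had an unadjusted p under 0.05, all lower). Of these *Traf6*, the ubiquitin ligase that MYD88 signaling recruits, was at -0.87 (adjusted p = 0.0945), and the IKK kinase gene *Ikbkb* was at -0.78 with an adjusted p of 0.0334 but short of a 2-fold change. Of 10 inhibitors *Sigirr*, an inhibitory receptor of the IL-1 receptor family, fell from 3.10 ± 0.116 to 1.04 ± 0.506 RPKM (log2 fold change -1.29, SE 0.26, limma adjusted p = 0.0425), a call that no fit without 1 mouse kept.

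Of 9 transcription factors at the end of the pathway, *Irf5*, an interferon regulatory factor activated through MYD88, had the smallest adjusted p of all genes named here. The controls held 10.9 ± 0.237 RPKM (SD, n = 3) of it and the *Hoxa9*/*IRX3* mice 1.01 ± 0.20 RPKM (n = 3), with a log2 fold change of -2.93 (SE 0.13, limma adjusted p = 0.000502), and it was called in 6 of 6 fits without 1 mouse. None of 9 tested inducible target genes was called (unadjusted p under 0.05 for 2 on the lower and 1 on the higher side). The chemokine gene *Ccl3* was at -1.93 (adjusted p = 0.186). *Il1rn*, the IL-1 receptor antagonist, was at 2.17 (adjusted p = 0.231), with 7.99 ± 7.86 RPKM in *Hoxa9*/*IRX3* mice. Of 3 tested genes of the IL-1 receptor family, whose signaling complexes also use MYD88, *Il1rap* was at 0.66 with an adjusted p of 0.0479 but short of a 2-fold change, and *Il18rap* was at -0.92 (adjusted p = 0.432). Among 11 other receptors for microbial patterns, *Nlrp3*, the inflammasome sensor, fell from 1.21 ± 0.676 to 0.0621 ± 0.0309 RPKM (log2 fold change -1.54, SE 0.27, limma adjusted p = 0.0289), with 1 of 6 fits without 1 mouse keeping the call. *Nlrp3* passed the expression filter only through the controls. With all mice its call was also lost without the filter, with sample weights and with limma voom.

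**Figure D5:**
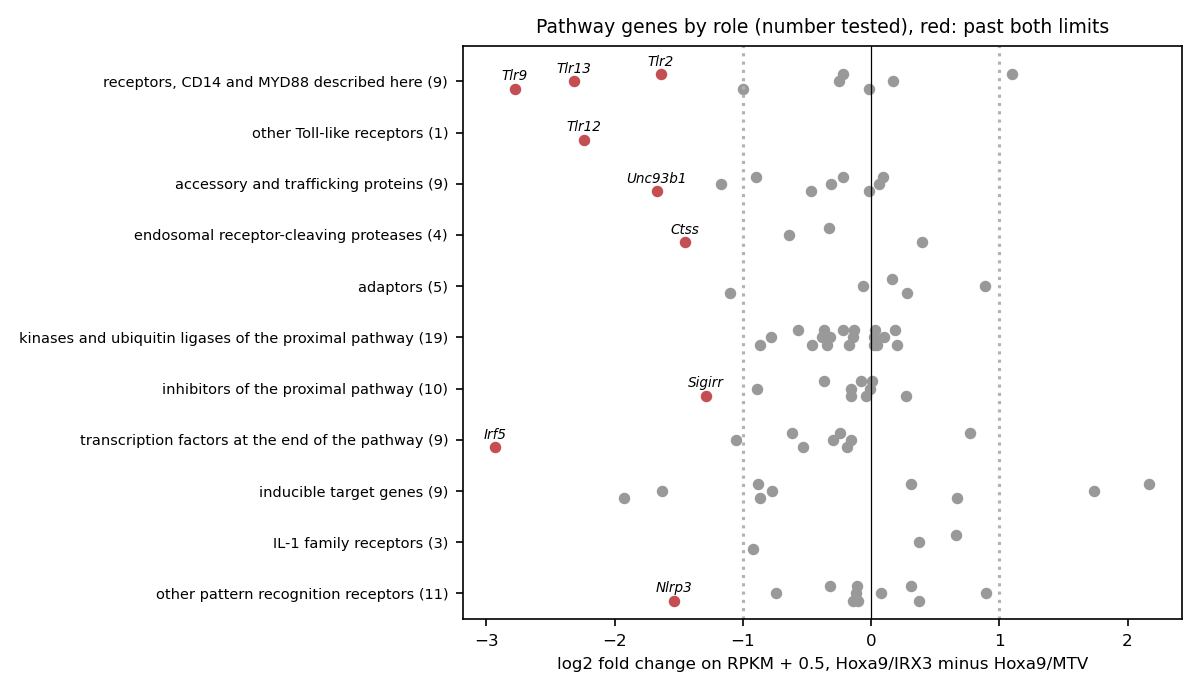
Log2 fold change of RPKM + 0.5 (*Hoxa9*/*IRX3* minus *Hoxa9*/MTV) of each tested gene, grouped by role, with the number tested in parentheses; red points with names are past both limits and dotted lines mark a 2-fold change. All red points lie on the lower side, from -1.29 (*Sigirr*) to -2.93 (*Irf5*), and none is among the adaptors, the kinases, the inducible targets or the IL-1 family receptors.

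Some markers of the cell types that also carry these receptors differed between the groups. Of 15 monocyte and macrophage markers 10 were tested and 3 fell, *Cd68* (-2.68, adjusted p = 0.0135), *Ccr2* (-2.06, adjusted p = 0.00843) and *Klf4* (-2.24, adjusted p = 0.0391). Over all tested genes 2.03% were lower. The median log2 fold change of the tested markers was -1.42. The summed level of the list overlapped (773 to 876 RPKM in *Hoxa9*/MTV mice, 536 to 1038 RPKM in *Hoxa9*/*IRX3* mice). The largest part of this sum was *Ly6c2*, a gene of the Gr1 antigen used for sorting, at 413 to 479 RPKM and 414 to 844 RPKM. The overlap therefore does not describe the other markers. Of 17 neutrophil markers 4 rose, *Elane* (1.91), *Retnlg* (1.75), *Gfi1* (1.71) and *Ly6g* (1.35), with limma adjusted p-values from 0.00298 to 0.0285, against 1.10% of all tested genes. The median log2 fold change of the list was 0.71, and *Ltf* (-0.99), *Mmp8* (-0.75) and *Ngp* (-0.13) were on the lower side without a call. The sum was 3188 to 4668 RPKM in the controls and 7016 to 7751 RPKM in *Hoxa9*/*IRX3* mice, of which *Elane* held 614 to 1053 RPKM and 2237 to 3332 RPKM. The part of either shift in the fall of *Tlr2*, *Tlr9* and *Tlr13* was not tested.

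Several defining genes of other lineages were at or near 0. B cells and plasmacytoid dendritic cells are known to express *Tlr9*. The B cell genes *Ms4a1* and *Pax5* were listed at 0 in all mice. The B cell list summed to 6.45 to 7.33 RPKM in the *Hoxa9*/MTV mice and 2.01 to 43.4 RPKM in the *Hoxa9*/*IRX3* mice. Of its 3 tested genes *Cd79b* fell (-2.65, adjusted p = 0.0383), from 6.73 ± 0.536 to 0.929 ± 1.20 RPKM. The other tested B cell genes were on the higher side, with *Igll1* at 3.92 (adjusted p = 0.0776) and *Vpreb1* at 1.08 (adjusted p = 0.272), and *Igll1* was at no more than 0.102 RPKM in the controls and at 1.19, 9.11 and 38.4 RPKM in mice 3.2, 3.3 and 3.5. Of 12 dendritic cell markers 6 were tested and 1, the receptor gene *Flt3*, fell (-1.35, adjusted p = 0.0102), while the list summed to 13.1 to 15.2 RPKM and 10.4 to 15.9 RPKM. *Flt3* passed the expression filter only through the controls. The other tested ones were not called, with *Bst2* (0.21) and *Tcf4* (0.04) on the higher side. *Cd74* (-0.78), *H2-Aa* (-0.71) and *H2-Ab1* (-0.64) were on the lower side. Of the untested dendritic cell markers *Siglech*, found in plasmacytoid dendritic cells, had 26, 15 and 12 reads in the *Hoxa9*/MTV mice and 0, 0 and 1 in the *Hoxa9*/*IRX3* mice. The groups did not overlap, and 21.6% of all tested genes were likewise lower without overlap. *Cd209a* had 14, 1 and 3 reads against 0, 0 and 0, *Clec9a* had 14, 7 and 2 against 4, 2 and 3, and *Zbtb46* had 2 or fewer in every mouse. Of 7 mast cell and basophil markers 5 were tested and *Gata2* (-2.62, adjusted p = 0.0166) and *Cpa3* (-1.40, adjusted p = 0.0432) fell. *Cpa3* passed the expression filter only through the controls. The *Gata2* call held in 3 and the *Cpa3* call in 1 of 6 fits without 1 mouse. Beside the calls in this list and in the B cell and dendritic cell lists, 2.03% of all tested genes were lower. The list summed to 17.6 to 22.8 RPKM and 7.21 to 8.94 RPKM. *Fcer1a* was at 0, but *Mcpt8* was at 8.75, 13.7 and 12.4 RPKM in the *Hoxa9*/MTV mice. In the *Hoxa9*/*IRX3* mice *Mcpt8* was at 3.18, 6.69 and 4.68 RPKM (-1.21, limma adjusted p = 0.0621). *Ms4a2* was on the higher side (0.66, limma adjusted p = 0.103). The T and NK cell genes *Cd3d*, *Trac* and *Ncr1* were at 0, and that list summed to 22.7 to 33.0 RPKM and 14.9 to 482 RPKM through *Nkg7*, its only tested gene (1.62, adjusted p = 0.415). Of the erythroid list 0 genes were tested, and *Hba-a1*, *Hbb-bt* and *Alas2* were at 0. The part of the mast cell, dendritic cell and B cell genes in the results for *Tlr9* and *Tlr13* was not tested.

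The genes whose pattern over the 6 mice was most like that of 3 members were listed as a description. For *Tlr2*, which had the highest mean RPKM over all 6 mice among *Tlr1*, *Tlr2*, *Tlr4* and *Tlr6*, they included *Tef* (Pearson r = 0.995 on log2(RPKM + 0.5)) and *Fmnl1* (0.990). For *Tlr9*, chosen likewise among *Tlr7*, *Tlr9* and *Tlr13*, they were *Arhgef39* (0.996), *Eny2* (0.994) and *Afap1l1* (0.994), and for *Cd14*, whose pattern is set by mice 3.2 and 3.3, they were *Ralb* (0.993), *Wdr92* (0.989) and *Polr3g* (0.987). These are among the highest of the 9522 tested genes, over 6 libraries that fall into 2 groups.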

How the data were processed

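RNA of sorted KIT+Gr1+ AML cells was compared between 3 *Hoxa9*/MTV and 3 *Hoxa9*/*IRX3* mice, grouped by the sample titles. Mouse numbers identify single animals and pair none of them across groups. The authors prepared strand-specific polyA libraries, sequenced paired ends of 75 bases, aligned reads to GRCm38 with Bowtie2 2.2.1, used SAMtools 0.1.19 to drop alignments that were missing, secondary or of low quality, and assigned reads to Ensembl genes with Annmap, R and Bioconductor. They deposited RPKM per gene and mouse, which divide by the whole gene span. RPKM are not counts; reads were recovered from the steps between low values and were whole within 0.01 of a read in all mice for 65.0% of the tested genes, and approximate for the others. Gene types, positions and exon lengths came from GENCODE M21, which held 40254 of the 41128 genes.

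Protein-coding genes over 0.5 RPKM in at least 1 mouse were fitted on log2(RPKM + 0.5), a scale that understates changes of low genes, with limma 3.58.1 in R 4.3.3 (lmFit, then eBayes with a trend in the variance), and p-values were adjusted over all 9522 genes by Benjamini-Hochberg. Some genes, such as *Tlr13*, *Ctss*, *Nlrp3*, *Flt3* and *Cpa3*, passed the filter only through the *Hoxa9*/MTV mice, and others, such as *Ly6g*, only through the *Hoxa9*/*IRX3* mice. Python 3.11.15 (pandas 2.3.3, scipy 1.17.1, matplotlib 3.10.9) served for the rest. Members and gene lists were chosen with earlier results of these data known. All Toll-like receptors are named, and of each other list the genes past both limits or, where none passed, those 2 with the largest estimate. Likeness was ranked for *Cd14* and for the gene with the highest mean RPKM (per gene span, over all mice) among surface and among nucleic acid receptors. Other genes named (*Irf8*, *Itgam*, *Ddx58*, *Ltf*, *Mmp8*, *Ngp*, *Mcpt8*, *Ms4a2*, untested or near-0 markers, *Igll1* and *Vpreb1* and the genes used to check the sort) were chosen after their values were seen. The uncalled monocyte and dendritic cell markers were also added after their values were seen. Alternatives were other pseudocounts (0.1 and 1), filters, scalings and weights, no variance trend, limma voom on the recovered reads, exon length, the criterion of the study (unadjusted p and ratio of means) and leaving out each mouse. The comparison of shares was added after seeing the data. Protein sequences were not used here. The promoter table had no window for *Tlr4*, *Tlr7* and *Ly96*, and *Cd14* was not searched. Some of the genes these rules name are not reported here.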

Additional observations from a re-analysis of the deposited data

How the results depend on the processing

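In the results that follow, p-values rest on 3 mice a group, and leaving out a mouse loses power, so a call lost this way does not show a smaller change. The number of members called lower was 3 or 2 under each of the 10 alternatives that used all mice and limma, the 2 being without a filter on low values, where *Tlr2* missed the threshold (adjusted p = 0.0773, with more genes tested). It was 4 (with *Tlr6*) by the criterion of the study, and 1 to 3 when a mouse was left out. The number called higher was 0, or 0 to 1 without 1 mouse. *Tlr9* and *Tlr13* were called under all 10 alternatives, with log2 fold changes that depended on the pseudocount (*Tlr9*, -3.78 with 0.1 and -2.19 with 1). Pathway genes called lower numbered 3 without a filter, 10 by the criterion of the study (met on the lower side by 4.72% of all tested genes), and 1 to 6 without 1 mouse. Those called higher were 2 with a pseudocount of 0.1, with limma voom, per exon length and by the criterion of the study, and 0 to 2 without 1 mouse.

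For genes that were not called, the sign turned under some settings. Leaving out 1 mouse, the log2 fold change ran from -0.47 to 0.06 for *Tlr1*, from -0.47 to 0.04 for *Tlr7*, from -0.01 to 0.33 for *Myd88* and from -1.08 to 0.98 for *Cd14*, which was also 0.02 with a pseudocount of 1, 0.06 with median-of-ratios scaling and 0.02 with quantile normalization. The difference of the ratio of *Ly96* to *Tlr4* was -1.69 with a pseudocount of 0.1 and -1.96 per exon length, and that of *Tlr4* to *Tlr2* was 3.40, or 2.28 with a pseudocount of 1, and 3.48 per exon length. Per gene span the differences of shares were 14.2 points for *Tlr4* and -20.2 points for nucleic acid receptors. No paired analysis was possible because the groups share no mouse number. At this depth 1 read was worth 0.00473 to 0.00581 RPKM for *Ly96*, and *Ly96*, *Tlr3*, *Tlr5*, *Tlr8* and *Tlr11*, which the filter left out, were not called in the fit without it (adjusted p from 0.165 to 0.994).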
